A study of Mus musculus with 24 samples.

Results

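The lysosomal genes considered were 39 gene symbols that code for the peptidases, glycosidases, lipid and sulfate hydrolases, lipid carriers and membrane proteins of the lysosome. They were taken by symbol from the 49568 gene lines of the raw count files, by a rule that uses no measured value but was drawn up with earlier results of these data known. Each was followed in 22 RNA-seq libraries of whole hippocampus out of 24 sequenced, and also against Ttr, the transcript of the thyroxine carrier transthyretin. In brain Ttr is made mainly by the choroid plexus, which lies in the ventricle beside the hippocampus.

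The mice were males on a C57-Bl/6J background, 12 weeks old by the labels, homozygous for either the wild-type (WT) or a kinase-dead (KD) allele of MSK1, and raised from birth either in standard cages (standard housing, SH) or with environmental enrichment (EE) in larger cages with toys and a running wheel. MSK1 is a nuclear kinase that signals from neuronal activity and BDNF to transcription. The KD allele carries an inactivating substitution in the N-terminal kinase domain of the endogenous gene, in every cell of the animal, and a gene count cannot check it. The groups compared were WT SH (6 libraries), KD SH (6), WT EE (5) and KD EE (5), each library being a separate sample. WT and KD mice were bred as separate lines and were not littermates, so that line and genotype cannot be told apart, and enriched mice also lived in larger social groups.

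Lysosomes are acidic compartments in which proteins, glycans and lipids delivered by endocytosis and autophagy are broken down. The hydrolases are made as precursors, carried to the lysosome and kept active by a proton pump, while heavily glycosylated proteins such as LAMP1 and LAMP2 line its membrane. In brain, every cell type has lysosomes, but macrophage-lineage cells such as microglia, and secretory and endocytic epithelia such as the choroid plexus, are rich in them. Inherited loss of many of these genes gives lysosomal storage disease, often with neurodegeneration.

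The 22 libraries held between 8911999 and 56752074 counts on genes (median 30266000), and a floor of 3 counts stood for at most 0.334 CPM (counts scaled by TMM, over each 1e+06 counts) in any of them. Library 33B of WT EE and library 34B of KD EE did not pass quality control and were left out, and 5 of the 22 (2, 9, 12, 31B and 35A) had been removed in the study for poor correlation within their group, so that results are also given for the other 17. The 5 libraries whose name carries a letter (31B, 32A, 33A, 35A and 36A) were all enriched, so for them the lettering and housing cannot be told apart. No libraries had identical counts, and markers of dentate gyrus and of CA1 were detected throughout, for example Prox1 at 81.8 to 136 CPM and Fibcd1 at 105 to 221 CPM. The labels do not tie the libraries to litters or dissections, and p-values measure the spread between these libraries alone. Counting ignored strand, and a read that overlaps more than 1 gene was not assigned.

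All 39 members passed the filter on low counts, the lowest count of any member in any library being 9, for Ctsk. Levels were compared per length as RPKM (CPM per kilobase of the union of the gene's exons). Exons shared with another gene stayed in the length, while reads overlapping both genes were not assigned. Levels of such members can be understated, so the order of members at close levels is uncertain. Psap, the precursor of the saposins that help glycosidases reach their lipid substrates, stood above every other member at 613 ± 43.7 RPKM (mean ± SD, n = 22), and its lowest library, at 529.9 RPKM, was above the highest library of the next member. Laptm4a, a small transmembrane protein of late endosomes and lysosomes, followed at 96.3 ± 8.70 RPKM, Gaa, the glucosidase that degrades lysosomal glycogen, at 91.9 ± 8.89 RPKM, and Ctsb, a cysteine peptidase, at 84.8 ± 3.87 RPKM. Lamp1, the membrane glycoprotein, came next at 82.3 ± 3.73 RPKM, and the ranges of these 4 over the libraries overlapped. At the other end were Ctsh at 1.89 ± 0.230 RPKM, Sgsh, the heparan sulfate sulfamidase, at 1.59 ± 0.255 RPKM, and Ctsk, the collagen-degrading cathepsin best known from osteoclasts, at 1.38 ± 0.335 RPKM.

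The median coefficient of variation of CPM over the 22 libraries was 9.04% for the 39 members and 12.9% for all genes tested. This measure depends on the level of a gene, and the genes tested were not matched to the members by level. The difference therefore cannot be read as a trait of the members. Ctsb and Lamp1 varied least, at 4.56% and 4.54%, and beside the scarce Ctsk the widest were Cd63 at 19.2%, Naglu at 18.7% and Ctsd at 17.2%. Summed over the 39 members, the level was 4779 ± 153 CPM in WT SH (SD, n = 6), 4806 ± 237 in KD SH (n = 6), 4924 ± 418 in WT EE (n = 5) and 4942 ± 256 in KD EE (n = 5), and the ranges of all 4 groups overlapped.

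**Figure D1:**
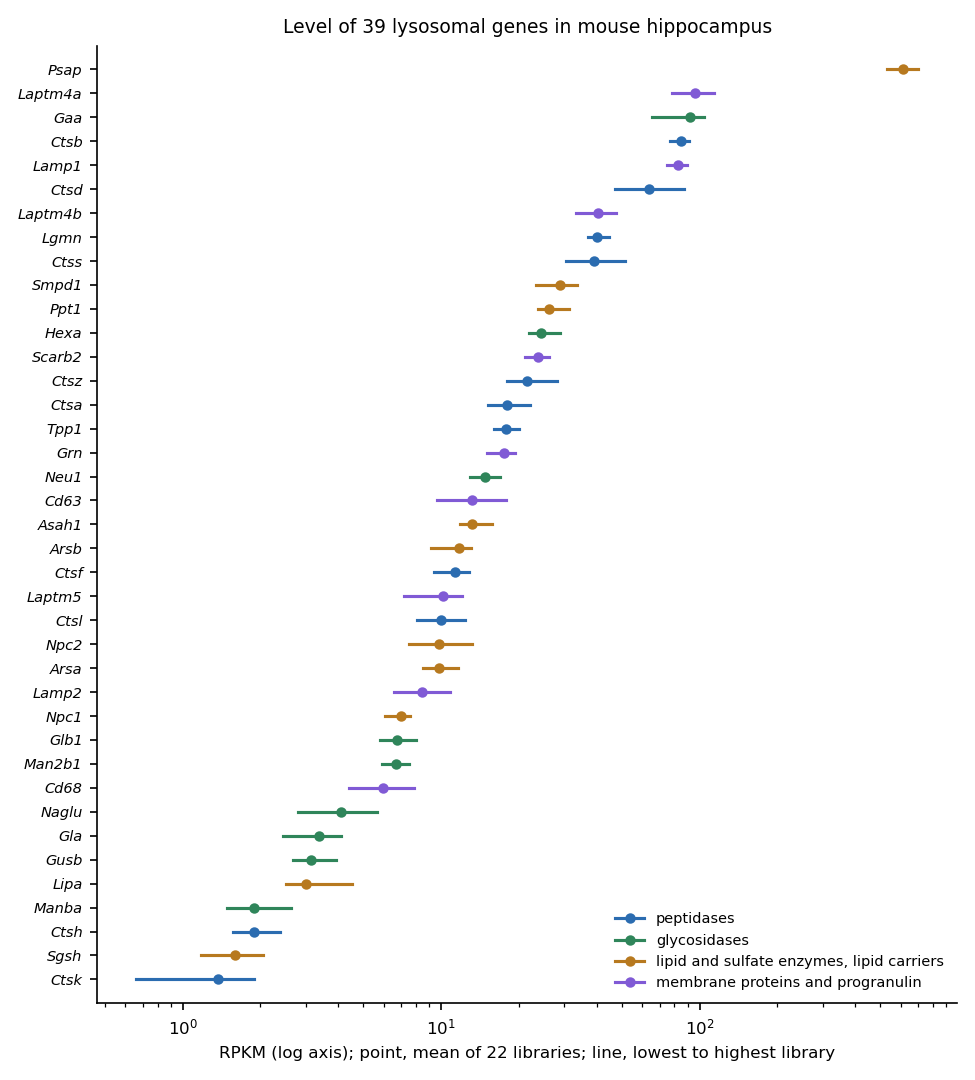
Level of each of the 39 lysosomal genes in RPKM on a log axis, with the mean of 22 libraries as a point and the lowest to the highest library as a line, coloured by role. Psap lies apart at 613 RPKM, and Ctsk is lowest at 1.38 RPKM.

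Many lysosomal genes carry in their promoter the E-box-like sequence through which TFEB and its relatives act, and short forms of it were searched in the windows of 250 bases before to 50 bases after the start site (RefSeq, GRCm38.p6), which were given for 34 of the 39 members. CACGTGA on either strand was in the windows of 10 of the 34 (29.41%), namely Arsa, Ctsa, Ctsd, Gaa, Gla, Glb1, Lamp1, Lgmn, Naglu and Sgsh, against 6.3% of the 12546 genes tested here with a window and 4.29% of all 27025. Its palindromic extension TCACGTGA, which contains CACGTGA on both strands, was in 3 of the 34 (8.82%), Ctsa, Ctsd and Gla, against 1.9% of the genes tested and 1.12% of all. The windows below are shown because they hold these letters in members that differ in the results that follow. Ctsd and Naglu were among the steepest against Ttr and Gla was not called. Cd63, the steepest of all, is added because its window holds none. That window lies inside the gene, which by GENCODE M21 starts at 128900989, and bases around that earlier start were not searched. Matched letters are in capitals, TCACGTG being CACGTGA read on the other strand, and the rest are in lower case, 5′ to 3′ on the gene's strand.
Ctsd (chr7:142387778-142388077, minus strand): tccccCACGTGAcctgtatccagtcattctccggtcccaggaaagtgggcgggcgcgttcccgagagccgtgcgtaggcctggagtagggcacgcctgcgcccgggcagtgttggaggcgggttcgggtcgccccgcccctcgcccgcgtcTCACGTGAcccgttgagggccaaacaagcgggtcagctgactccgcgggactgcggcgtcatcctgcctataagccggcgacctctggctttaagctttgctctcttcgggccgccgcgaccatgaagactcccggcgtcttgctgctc
Naglu (chr11:101069844-101070143, plus strand): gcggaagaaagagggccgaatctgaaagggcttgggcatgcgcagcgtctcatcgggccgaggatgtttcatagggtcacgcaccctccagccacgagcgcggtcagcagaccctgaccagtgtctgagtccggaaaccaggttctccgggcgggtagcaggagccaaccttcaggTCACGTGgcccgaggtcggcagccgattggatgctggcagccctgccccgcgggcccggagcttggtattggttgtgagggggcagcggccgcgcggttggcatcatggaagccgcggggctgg
Gla (chrX:134600956-134601255, minus strand): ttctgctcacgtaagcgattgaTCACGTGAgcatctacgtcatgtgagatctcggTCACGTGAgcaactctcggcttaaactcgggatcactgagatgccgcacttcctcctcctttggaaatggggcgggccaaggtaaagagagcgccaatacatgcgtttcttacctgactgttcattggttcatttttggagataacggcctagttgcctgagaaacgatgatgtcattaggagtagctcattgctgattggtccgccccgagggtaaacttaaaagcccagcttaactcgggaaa
Cd63 (chr10:128909095-128909394, plus strand): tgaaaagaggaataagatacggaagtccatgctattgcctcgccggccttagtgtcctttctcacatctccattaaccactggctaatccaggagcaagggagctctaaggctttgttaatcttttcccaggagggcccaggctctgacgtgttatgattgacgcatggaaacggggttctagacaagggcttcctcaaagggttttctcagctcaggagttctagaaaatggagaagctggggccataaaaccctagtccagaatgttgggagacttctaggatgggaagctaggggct

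No window was given for Asah1, Ctsb, Ctsh, Laptm4b and Npc1. A match describes letters only and says nothing of binding in these samples.

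The members were then set against Ttr, whose level differed between libraries far more than any lysosomal gene. Ttr was between 28.5 and 1661 CPM (median 42.6, n = 6) in WT SH and between 16.8 and 2624 CPM (median 97.6, n = 6) in KD SH. In WT EE the values were 34.2, 41.7, 3682, 4666 and 4732 CPM, and in KD EE 167, 910.4, 1964, 2694 and 5129 CPM. The low pair in WT EE were libraries 35A and 31B, the lowest in KD EE was 9, and the highest in standard housing were 12 in WT and 2 in KD, the 5 libraries removed in the study. Each gene was fitted with a mean for each group and a slope on Ttr, in log2 units for each 1000 CPM of Ttr, so that the slope is one within groups (quasi-likelihood test of edgeR, Benjamini–Hochberg adjustment over all genes, with calls at an adjusted p up to 0.05).

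Of the 39 members, 16 rose with Ttr and none fell, a share of 41% beside 4.7% of all genes called as rising and 4.94% called in either direction. In all, 36 of the 39 slopes were above 0. The median slope was 0.035 over the members and -0.0024 over all 18481 genes tested. The steepest was Cd63, a tetraspanin of late endosomes, lysosomes and exosomes.

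Cd63 was between 39.3 and 50.1 CPM (median 43.3, n = 6) in WT SH and between 42.4 and 61.4 CPM (median 46.6, n = 6) in KD SH. The WT EE values were 35.5, 37.5, 60.1, 62.6 and 63.1 CPM, and in KD EE 38.5, 44.5, 53.7, 55.96 and 65.8 CPM. Libraries 35A and 31B, with little Ttr, had the lowest Cd63 of all, below every standard-housed library, and the other 3 WT EE libraries lay above all 6 of WT SH. Its slope was 0.16 ± 0.015 (SE), with an adjusted p of 1.00e-08 by edgeR, which over the range of Ttr from 16.8 to 5129 CPM stands for a fitted 1.78-fold difference.

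Npc2, which hands cholesterol to NPC1 inside the lysosome, was between 45.3 and 62.7 CPM (median 48.8, n = 6) in WT SH and between 48.1 and 65.7 CPM (median 51.5, n = 6) in KD SH. Enriched WT libraries had 40.9, 45.6, 66.1, 66.8 and 71.7 CPM, and in KD EE 42.97, 51.5, 51.7, 57.02 and 60.2 CPM. The highest library of each standard-housed group was again the one with the most Ttr, 12 in WT and 2 in KD. The slope of Npc2 was 0.13 ± 0.016 (SE), with an adjusted p of 2.52e-06 by edgeR. For Npc1, the membrane partner that exports the cholesterol, the slope was -0.0084 ± 0.013 (SE), with an adjusted p of 0.815 by edgeR.

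Ctsd, the main aspartic peptidase of the lysosome, was between 111 and 152 CPM (median 135, n = 6) in WT SH and between 124 and 179 CPM (median 141, n = 6) in KD SH. Among WT EE libraries it was 126, 133, 184, 188 and 198 CPM, and in KD EE 132, 156, 158, 164 and 205 CPM. The lowest libraries of both enriched groups were those with the least Ttr, and they fell among the standard-housed values. The slope was 0.12 ± 0.015 (SE), with an adjusted p of 8.49e-07 by edgeR.

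Ctsl, a cysteine peptidase, was between 59.7 and 68.8 CPM (median 61.7, n = 6) in WT SH and between 55.5 and 80.1 CPM (median 62.3, n = 6) in KD SH. The 5 WT EE libraries had 52.3, 54.6, 68.9, 73.7 and 77.5 CPM, and in KD EE 59.3, 64.8, 64.9, 66.5 and 75.3 CPM. All 4 groups overlapped, and the highest library of each was the one with the most Ttr. The slope was 0.094 ± 0.015 (SE), with an adjusted p of 1.15e-04 by edgeR.

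Lamp2, a major glycoprotein of the lysosomal membrane that also serves chaperone-mediated autophagy, was between 69.5 and 79.9 CPM (median 71.6, n = 6) in WT SH and between 67.4 and 97.3 CPM (median 84.4, n = 6) in KD SH. For WT EE the values were 62.8, 71.3, 90.98, 97.6 and 98.96 CPM, and in KD EE 64.3, 78.8, 86.6, 90.7 and 104 CPM. Its KD SH values spread nearly as widely as its enriched ones. The slope was 0.11 ± 0.018 (SE), with an adjusted p of 7.43e-05 by edgeR, whereas that of its relative Lamp1 was 0.020 ± 0.011 (SE), with an adjusted p of 0.419; the difference between these slopes was not tested.

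Naglu, the glucosaminidase of heparan sulfate breakdown, was between 8.89 and 12.2 CPM (median 11.1, n = 6) in WT SH and between 8.36 and 12.4 CPM (median 9.84, n = 6) in KD SH. In WT EE it was 7.42, 8.83, 13.6, 14.6 and 15.02 CPM, and in KD EE 8.97, 10.5, 11.1, 11.9 and 12.6 CPM. In KD EE the library with the most Ttr, 36A, had 10.5 CPM, below the group's median. The slope was 0.13 ± 0.028 (SE), with an adjusted p of 0.00360 by edgeR, and it was the only one of these 6 to lose its call when a single library was left out: without 35A the adjusted p was 0.0508.

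**Figure D2:**
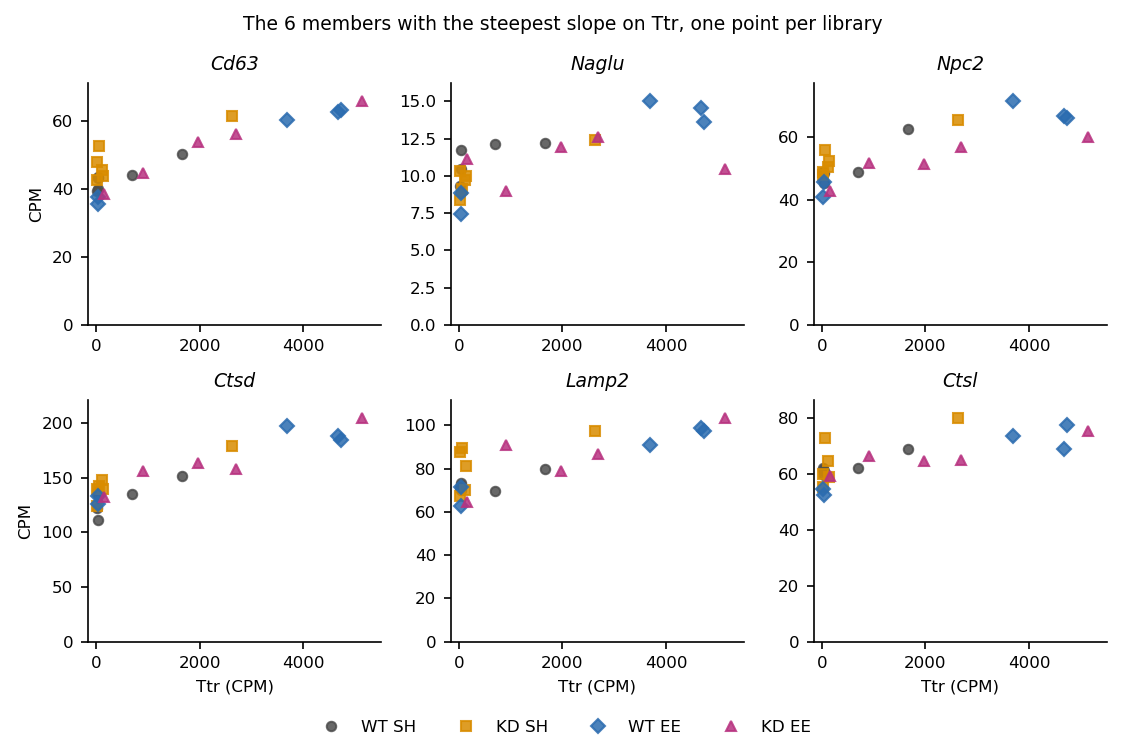
CPM of the 6 members with the steepest slope against Ttr in CPM, 1 point for each of the 22 libraries, with colour and marker for the group. Cd63 goes from 35.5 CPM in a library with 34.2 CPM of Ttr to 65.8 CPM in the library with 5129. Naglu in the library with the most Ttr, 10.5 CPM, lies below the other libraries with 1661 CPM of Ttr or more.

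By role, 6 of 11 peptidases rose with Ttr (median slope 0.051). Beside Ctsd and Ctsl these were Ctsz, a carboxypeptidase, at 0.092 ± 0.019, Ctsh, an aminopeptidase, at 0.077 ± 0.021, Ctsa, the protective protein of the galactosidase and sialidase complex, at 0.051 ± 0.015, and Tpp1, the tripeptidyl peptidase of a childhood neuronal ceroid lipofuscinosis, at 0.047 ± 0.012. Ctss, the cathepsin of microglia and other antigen-presenting cells, had a slope of -0.023 ± 0.026 and was not called (adjusted p = 0.738, edgeR), nor were Ctsb, Ctsf, Ctsk and Lgmn.

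Of the 9 glycosidases, 3 rose (median slope 0.026), namely Naglu, Glb1, the galactosidase of GM1 ganglioside, at 0.086 ± 0.016, and Man2b1, the mannosidase of N-glycan breakdown, at 0.054 ± 0.015. Gaa, Gla, Gusb, Hexa, Manba and Neu1 did not pass the test, with slopes from 0.0065 ± 0.015 for Neu1, the sialidase, to 0.027 ± 0.013 for Hexa, a subunit of the hexosaminidase that degrades GM2 ganglioside.

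Of the 10 lipid and sulfate enzymes and lipid carriers, 3 rose (median slope 0.033), namely Npc2, Smpd1, the acid sphingomyelinase, at 0.061 ± 0.013, and Psap at 0.053 ± 0.012. Psap was between 1513 and 1749 CPM (median 1663, n = 6) in WT SH and between 1454 and 1752 CPM (median 1646, n = 6) in KD SH. It was 1527, 1584, 1795, 1809.7 and 1896 CPM in WT EE and 1564, 1675, 1724, 1755 and 1919 CPM in KD EE. In 3 of the 4 groups the highest library was the one with the most Ttr, and the slope of this most abundant member stands for a fitted 1.21-fold difference over the range of Ttr.

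Of the 9 membrane proteins and progranulin, 4 rose (median slope 0.029), namely Cd63, Lamp2, and the LAPTM4 proteins Laptm4a at 0.056 ± 0.014 and Laptm4b at 0.051 ± 0.014. Laptm5, the form of blood and microglial cells, had 0.029 ± 0.017, and Cd68, a glycoprotein of macrophage lysosomes, had -0.032 ± 0.029; neither was called. Grn, progranulin, had 0.024 ± 0.015, Scarb2, the receptor that carries glucocerebrosidase, 0.0032 ± 0.013, and Lamp1 0.020 ± 0.011, and none of these passed.

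CACGTGA was in the windows of 4 of 14 called members with one (28.57%) and of 6 of 20 not called (30.0%). Ctsd, Naglu, Glb1 and Ctsa were the called members that held it, and Gla, which holds the longer form, had a slope of 0.026 ± 0.025 and was not called.

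**Figure D3:**
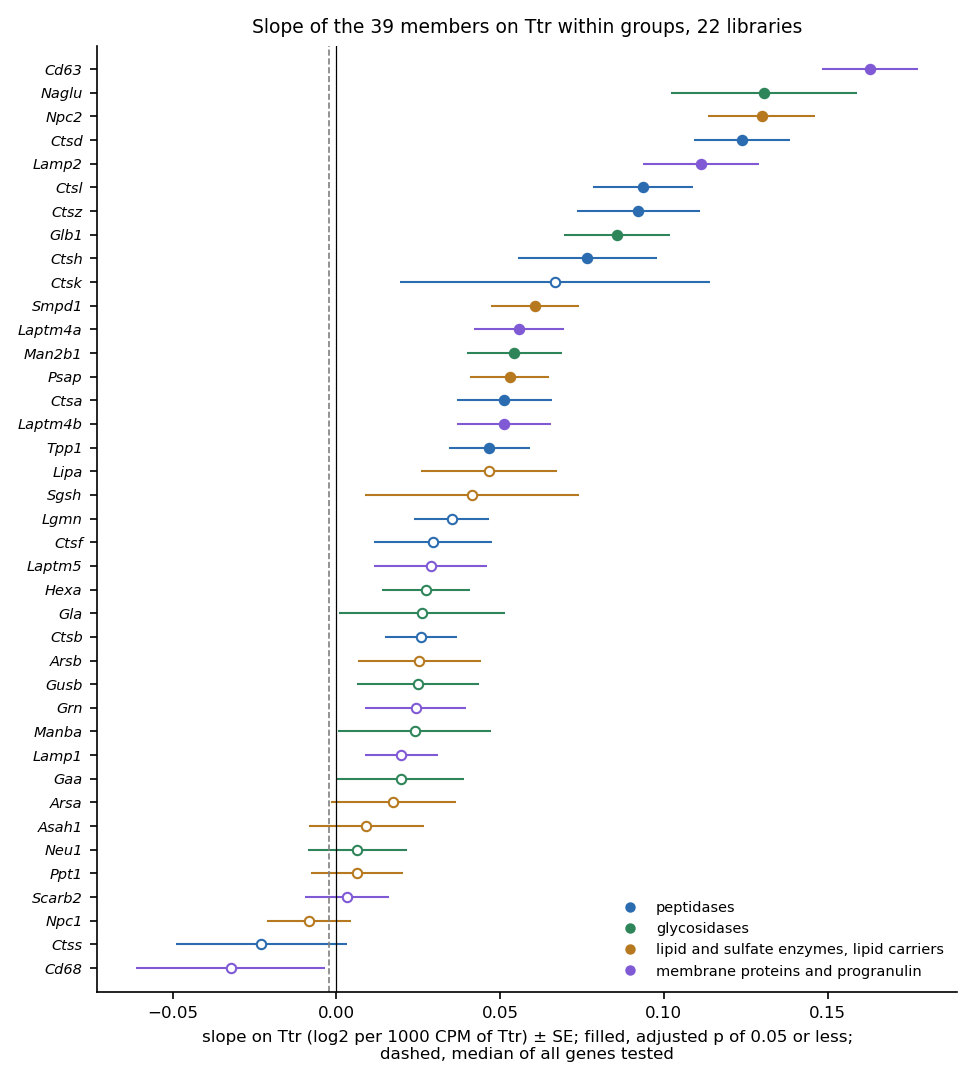
Slope of each member on Ttr in log2 units for each 1000 CPM of Ttr, with its SE, filled where called and coloured by role. The 16 called slopes run from 0.047 (Tpp1) to 0.16 (Cd63), and the dashed line marks the median of all genes, -0.0024.

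Other lysosomal genes were read from lists of hydrolases, membrane and transport proteins, the V-ATPase, sorting and regulation, and cathepsin inhibitors, drawn up with earlier results of these data known. The share over all genes to set beside each count is the 4.7% called as rising with Ttr. Of 22 further hydrolases and their cofactors, 7 rose with Ttr (median slope 0.040), among them Acp5 at 0.32 ± 0.088, Arsg at 0.19 ± 0.026, Ctsc at 0.14 ± 0.019 and Fuca1 at 0.091 ± 0.017. Acp5, the tartrate-resistant acid phosphatase, was at most 0.708 CPM and 0 in at least 1 library, whereas Arsg, a sulfatase, was 19.4 to 46.6 CPM. None of 16 membrane and transport proteins was called (median 0.0038), and of the 18 V-ATPase subunits tested, which acidify the lysosome, 1 was, Atp6v0e at 0.079 ± 0.018. Of 16 genes of sorting and regulation, 1 was called, Mitf at 0.15 ± 0.025, a transcription factor of the family of TFEB. From the same family, Tfeb at 0.067 ± 0.032 and Tfe3 at -0.016 ± 0.017 were not called (adjusted p = 0.316 and 0.708, edgeR). Of 3 cathepsin inhibitors none was called. The counts of 1 of 18 and 1 of 16 were close to the share over all genes.

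Markers of tissues beside the hippocampus moved along with Ttr. All 15 choroid plexus markers rose with it, none of them at 0 in all libraries, and their summed level was 219.6 to 1162 in WT SH, 210.2 to 1797 in KD SH, 201 to 3505 in WT EE and 309.7 to 3359 in KD EE (CPM). Of 8 markers of the meninges, 5 rose, with summed levels of 113 to 227 in WT SH, 88.5 to 246 in KD SH, 99.3 to 374 in WT EE and 112 to 336 in KD EE. Of 6 ependymal markers 4 rose, with sums of 24.5 to 28.7 in WT SH, 22.3 to 43.4 in KD SH, 17.9 to 46.5 in WT EE and 20.8 to 40.97 in KD EE. Among the rest, 1 of 6 endothelial and 1 of 5 blood genes rose, and none of 14 microglial, 6 border macrophage, 6 oligodendrocyte, 6 astrocyte, 6 neuronal or 6 hippocampal subfield markers was called. A marker that was not called need not be flat. The 5 blood genes had slopes of 0.14 to 0.20. The 6 border macrophage genes had slopes of -0.016 to 0.14, at a summed level of only 6.14 to 14.02 CPM. In bulk RNA, more cells of a type and more RNA in each cell cannot be told apart, and the part of these tissues in the members' slopes was not tested beyond the fits that follow.

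The slopes stayed positive in every fit tried for all 16 called members, but the count of calls did not stay at 16. With a score of the meninges markers as a further covariate, 2 members were called, Cd63 and Ctsd (background 1.47%), with an endothelial score 8 (3.63%) and with a border macrophage score 10 (3.68%), all chosen after seeing the data. Over standard-housed libraries alone 2 were called, Cd63 and Npc2 (1.12%), and over enriched libraries alone 7 (2.84%), while the difference between the slopes of the housings, fitted as an interaction, was called for no member and no gene (0%), with 0 members at an unadjusted p under 0.05. The slope of Cd63 was 0.16 ± 0.036 (SE) in standard housing and 0.16 ± 0.017 in enriched.

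The count of calls also changed with the libraries used. Without 35A, 10 members were called (3.85% of all genes), without 31B and 35A together 5 (2.71%), without 2 and 12 together 10 (3.47%) and without the lettered libraries 3, Cd63, Ctsd and Npc2 (1.54%). Over all 24 libraries there were 16 (5.23%). Over the 17 libraries of the study, where most of the spread of Ttr lies between the housings, no member was called (0.652%), the slope of Cd63 being 0.12 ± 0.030 (SE). When group means were left out of that fit, so that housing and Ttr were not told apart, 16 were called in either direction (6.83%). Of these, 14 were among the 16 above, with slopes above 0, and the others were Laptm5 and Lipa. Laptm5 was lower in every enriched library than in every standard-housed one, so its call need not be a rise.

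The genes outside the members whose pattern was most like the mean log2 CPM of the 16, over the 22 libraries, were Fxyd1, a regulator of the sodium pump (Pearson r = 0.963), Glmp, a lysosomal membrane protein (r = 0.960), Calml4 (r = 0.954), Ephx1, an epoxide hydrolase (r = 0.950), and Spint2, a protease inhibitor of epithelia (r = 0.950). These values describe the likeness, share libraries and their depth, and carry no test. Fxyd1 ranged from 18.5 to 42.5 CPM and Calml4 from 0.529 to 14.97 CPM.

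Enriched and standard housing were compared within each genotype and averaged over both, a call needing an adjusted p up to 0.05 by edgeR and a log2 fold change of at least 0.38 either way, about 1.3-fold. No member was called in WT (background 0%) or in KD (0%), and DESeq2 also called none. The median log2 fold change of the members was 0.061 in WT and 0.024 in KD, against 0.0062 and 0.0028 over all genes. Averaged over genotypes no member was called either (0.146% of all genes), and by the adjusted p alone 1 was, Laptm5 (0.265% of all genes). The interaction of genotype and housing was called for no member (0%), with 0 at an unadjusted p under 0.05 by edgeR and by DESeq2.

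Laptm5, which in blood and microglial cells sorts receptors to the lysosome, was between 39.4 and 45.8 CPM (median 42.5, n = 6) in WT SH and between 39.5 and 42.95 CPM (median 39.8, n = 6) in KD SH. The WT EE values were 30.3, 35.8, 36.3, 36.5 and 37.1 CPM, and in KD EE 27.2, 34.9, 36.9, 37.2 and 39.3 CPM. In both genotypes every enriched library was below every standard-housed one, the lowest being 9 in KD and 35A in WT. The log2 fold change averaged over genotypes was -0.23 ± 0.051 (SE), with an adjusted p of 0.0456 by edgeR. With Ttr as a covariate it was -0.29 ± 0.060 (adjusted p = 0.0784, edgeR), over the 17 libraries -0.17 ± 0.044 (0.0249), and without the lettered libraries -0.22 ± 0.065 (0.119).

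Of the 14 microglial markers, which do not include Laptm5, 12 had an average below 0 in enriched housing, the median over all genes being 0.0047. By the adjusted p alone 3 passed, beside 0.265% of all genes. Their summed level was 373 to 435 in WT SH, 379.5 to 426 in KD SH, 371 to 386 in WT EE and 347 to 389.7 in KD EE. These ranges overlapped between the housings in both genotypes. The part of microglia in the difference of Laptm5 was not tested. The other macrophage-type members had log2 fold changes averaged over genotypes of -0.20 ± 0.077 for Ctss (adjusted p = 0.179, edgeR) and -0.081 ± 0.084 for Cd68 (adjusted p = 0.677, edgeR).

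Ctsd had the next lowest p. Its mean was 132 ± 13.95 CPM in WT SH (SD, n = 6), 146 ± 18.4 in KD SH (n = 6), 166 ± 33.7 in WT EE (n = 5) and 163 ± 26.4 in KD EE (n = 5), and the groups overlapped in both genotypes. Enriched against standard housing, the difference on the log2 scale was 0.33 ± 0.12 in WT mice (SE; adjusted p = 0.425, edgeR), 0.17 ± 0.12 in KD mice (adjusted p = 0.657), and 0.25 ± 0.082 averaged over both (adjusted p = 0.130). With Ttr as a covariate the average became -0.0083 ± 0.051.

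Lipa, the acid lipase of cholesteryl esters and triglycerides, was between 17.8 and 20.6 CPM (median 18.5, n = 6) in WT SH and between 17.02 and 21.7 CPM (median 19.3, n = 6) in KD SH. Enriched WT libraries had 18.2, 18.5, 21.9, 22.1 and 22.2 CPM, and in KD EE 19.96, 20.3, 21.2, 24.7 and 30.6 CPM. Values overlapped in both genotypes, and 1 KD EE library, 36A, was above all others. The log2 fold change averaged over genotypes was 0.20 ± 0.067 (SE), with an adjusted p of 0.132 by edgeR.

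The call depended on the libraries. Over the 17 libraries of the study, in which 31B and 35A are absent and each WT EE library had at least 3682 CPM of Ttr, 6 of the 39 members were higher in WT EE than in WT SH (15.4%, beside 3.48% of all genes called higher), and none in KD (1.74% called in either direction). They were Ctsd at 0.57 ± 0.086 (log2 fold change ± SE), Cd63 at 0.56 ± 0.091, Npc2 at 0.50 ± 0.067, Naglu at 0.46 ± 0.12, Lamp2 at 0.43 ± 0.089 and Ctsz at 0.42 ± 0.090, each of them among the 16 that rose with Ttr. With Ttr as a covariate in the same libraries none was called (0.016%), the values being 0.21 ± 0.15 for Ctsd and 0.067 ± 0.15 for Cd63. That fit was chosen after seeing the data, and its SE for Cd63 was larger than without Ttr (0.091).

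Averaged over genotypes in the 17 libraries, 2 members were higher in enriched housing, Ctsd and Cd63 (3.74% of all genes). Without the lettered libraries 4 were higher in WT EE, Ctsd, Ctsz, Cd63 and Npc2 (1.55%). Over the 22 libraries, Ttr as a covariate turned the median of the members from 0.061 to -0.066 in WT and from 0.024 to -0.044 in KD. Of the members, Npc2 then had the values -0.24 ± 0.072 in KD and -0.11 ± 0.075 in WT, neither of them called (adjusted p = 0.393 and 0.804, edgeR).

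**Figure D4:**
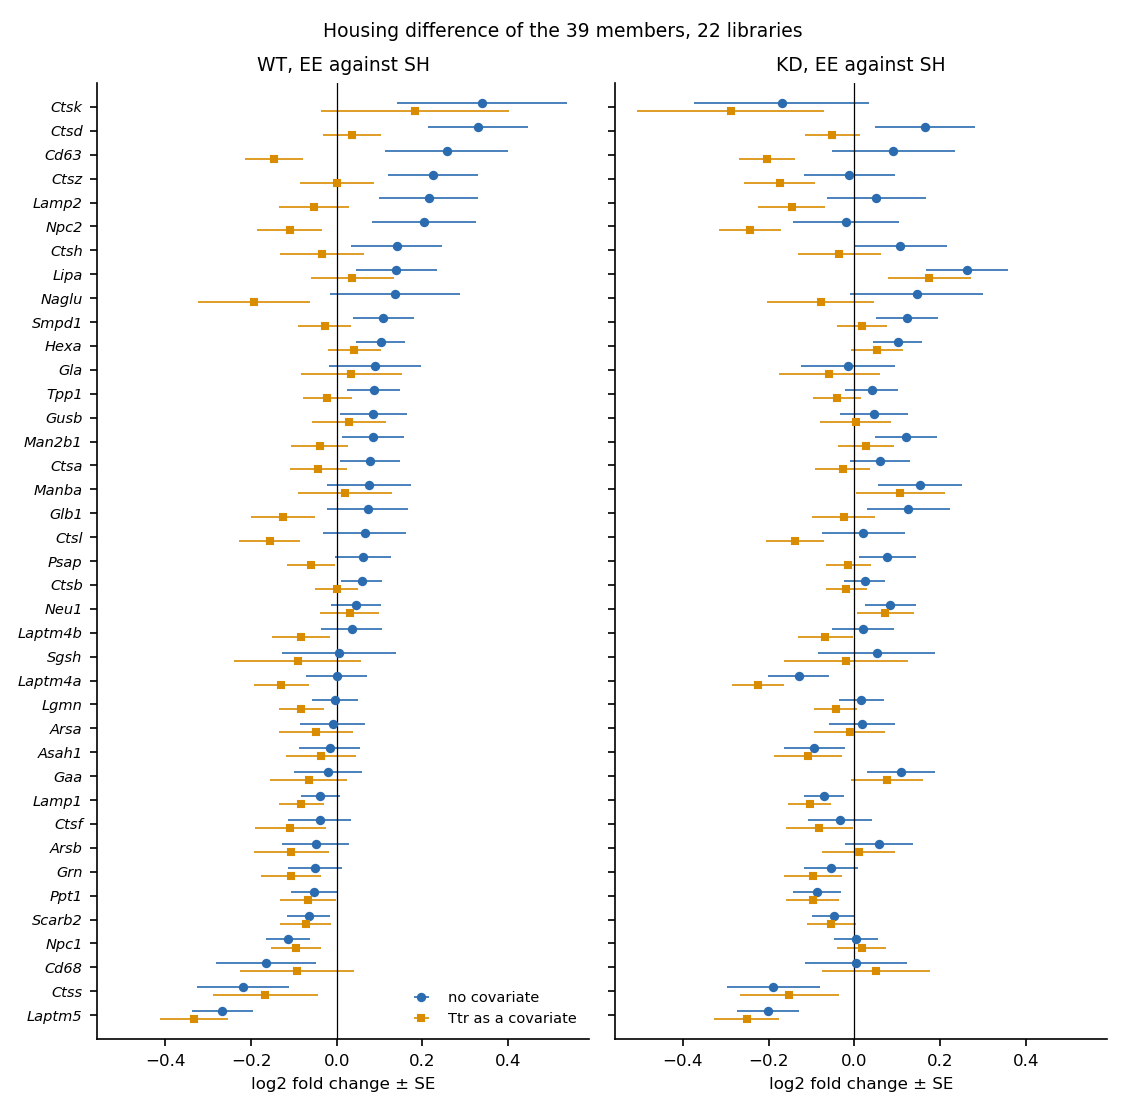
Log2 fold change of enriched against standard housing for the 39 members, with its SE, in WT on the left and in KD on the right, without a covariate (circles) and with Ttr as a covariate (squares). The squares lie to the left of the circles for Cd63, from 0.26 to -0.15 in WT, and for Laptm5 both lie below 0.

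The genotypes were compared within each housing. No member was called in standard housing (0% of all genes) or in enriched housing (0%), and DESeq2 also called none. The median log2 fold change of WT against KD was -0.050 over the members in SH and -0.014 in EE, against -0.0064 and 0.0024 over all genes. The 3 with the lowest p in standard housing were Gaa, Laptm4a and Arsb, the arylsulfatase of dermatan sulfate.

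Gaa was between 424 and 497 CPM (median 459.7, n = 6) in WT SH and between 314 and 468 CPM (median 414, n = 6) in KD SH. Among WT EE libraries it was 392, 449, 450.4, 479 and 498 CPM, and in KD EE 413, 429, 436, 443 and 478 CPM. The groups overlapped, and the lowest library was 5 in KD SH. The log2 fold change of WT against KD was 0.17 ± 0.076 in SH (SE, adjusted p = 0.811, edgeR) and 0.045 ± 0.083 in EE (not called).

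Laptm4a was between 156 and 182 CPM (median 164, n = 6) in WT SH and between 162 and 202 CPM (median 185, n = 6) in KD SH. The 5 WT EE libraries had 139, 150.4, 170.4, 179 and 188 CPM, and in KD EE 155, 164, 168, 169 and 182 CPM. Here WT SH and KD SH overlapped, and the lowest libraries were the WT EE ones with little Ttr. The log2 fold change of WT against KD was -0.15 ± 0.067 in SH (SE, adjusted p = 0.811, edgeR) and -0.020 ± 0.074 in EE.

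Arsb was between 67.8 and 77.98 CPM (median 76.2, n = 6) in WT SH and between 55.4 and 78.6 CPM (median 68.1, n = 6) in KD SH. For WT EE the values were 68.7, 70.9, 70.9, 71.3 and 78.2 CPM, and in KD EE 58.8, 64.3, 71.95, 75.5 and 76.04 CPM. The groups overlapped, and the KD values spread more widely than the WT ones. The log2 fold change of WT against KD was 0.16 ± 0.075 in SH (SE, adjusted p = 0.811, edgeR) and 0.049 ± 0.082 in EE.

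**Figure D5:**
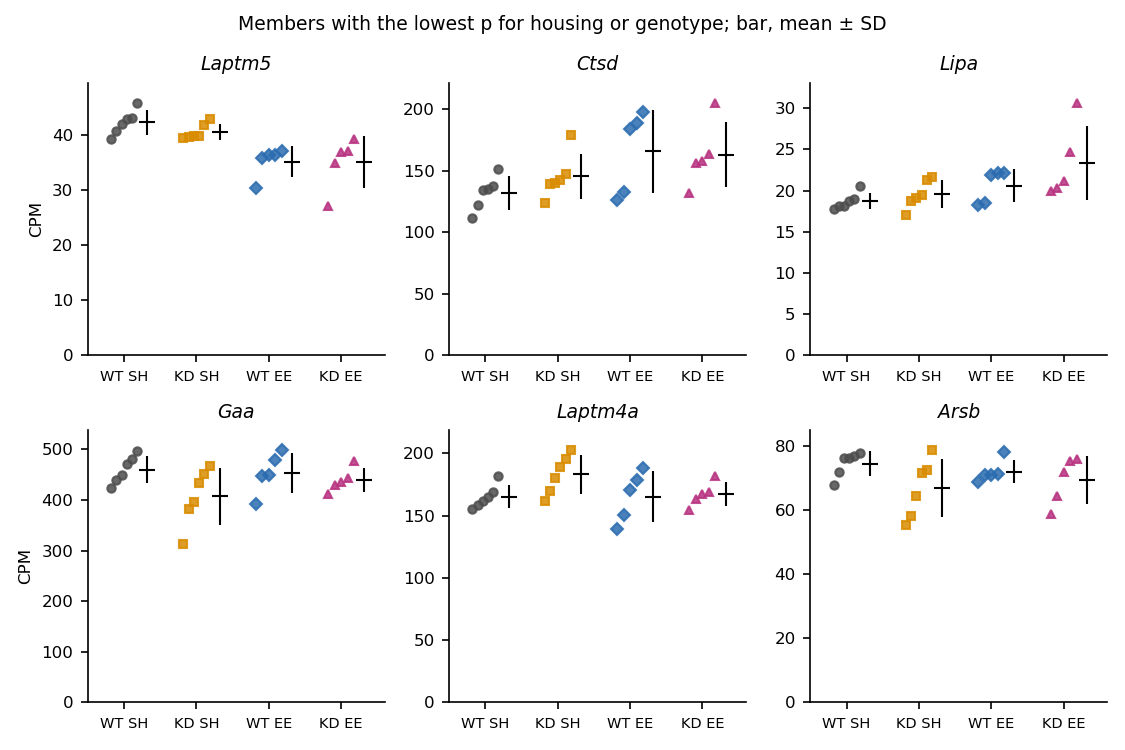
CPM of the 3 members with the lowest p for housing (Laptm5, Ctsd, Lipa) and of the 3 with the lowest p for genotype in standard housing (Gaa, Laptm4a, Arsb), 1 point for each library and the mean ± SD beside each group (n = 6 in SH, n = 5 in EE). Laptm5 is at or below 39.3 CPM in all enriched libraries and at or above 39.4 CPM in all standard-housed ones.

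Since several members are expressed mostly by microglia in brain, each gene was also fitted with the group means, Ttr and a microglial score, the mean log2 CPM of the 14 markers. No member was called (0% of the 18467 genes tested), and DESeq2 also called none. The median slope of the members was 0.36 log2 units for each unit of the score, against -0.0078 over all genes, and 32 of 39 were above 0. The highest was Ctss at 1.64 ± 0.48 (SE, adjusted p = 0.384, edgeR). Lamp2 had 0.92 ± 0.34, Ctsl 0.82 ± 0.29 and Laptm5 0.65 ± 0.35. With all 24 libraries 3 members were called (1.54% of all genes).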

How the data were processed

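Per the study's methods, paired-end poly-A libraries were trimmed with Skewer, aligned to GRCm38 with STAR 2.5 and counted on genes of the Ensembl annotation with HTSeq, ignoring strand and keeping uniquely aligned reads. The values deposited by the authors are these raw counts, 1 file for each library, with no normalization; their shared table for 17 libraries was not used. Between 14.1% and 18.6% of the counted fragments of the 22 libraries fell outside single genes and were left out of library sizes. The depth was 8911999 to 56752074 counts on genes, and floors and SE cover counting error and the spread of these libraries only.

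Counts of 22 libraries were fitted in edgeR 4.0.16 (R 4.3.3) with filterByExpr by group, TMM scaling and quasi-likelihood tests in 1 model with 4 group means; p-values were adjusted by Benjamini–Hochberg over all genes tested. SE were taken from the estimate and its F. Ttr entered linearly, in units of 1000 CPM, and scores are mean log2 CPM with a prior count of 2. CPM are TMM-scaled counts over each 1e+06, and RPKM use exon unions of GENCODE M21. Scripts were tested on simulated data. The members and all lists were chosen with earlier results of these data known. Members given in full were the 6 steepest of those called against Ttr, the 3 with the lowest p for housing and for genotype in SH, and the 3 highest per length; of other lists, at most 5 called genes (1 of which is not reported here); and the 5 genes most alike. Alternatives were the 17 libraries of the study, all 24, no lettered libraries, each library left out in turn, DESeq2 1.42.0, its size factors, other filters, the adjusted p alone, Ttr on a log scale, a choroid score and Ttr as a covariate for housing. Fits with further scores, without 2 named libraries, without group means in the 17, or with a slope for each housing were added after seeing the data.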

Additional observations from a re-analysis of the deposited data

Results flagged for a closer look

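In 5 of 52 groups of values examined, 1 library stood apart from the rest of its group by Dixon's ratio. That ratio is the gap from the library to its nearest neighbour over the group's range on the log2 scale. Chance flags about 1 in 20 when groups are independent and not chosen by their values. Here the groups share libraries, and the members in them were chosen by results from the same libraries. The count of 5 therefore cannot be set against that rate. Npc2, Ctsl and Lamp2 were chosen for steep slopes on Ttr, so flags of a library with much Ttr are not independent of that choice. In WT SH, library 12, with 1661 CPM of Ttr, was highest for Npc2 at 62.7 CPM beside 45.3 to 48.9 (ratio 0.767), for Ctsl at 68.8 CPM beside 59.7 to 62.1 (ratio 0.712) and for Lamp2 at 79.9 CPM beside 69.5 to 73.2 (ratio 0.629). In WT EE, library 35A, with 34.2 CPM of Ttr, was lowest for Laptm5 at 30.3 CPM beside 35.8 to 37.1 (ratio 0.832), and library 33A was highest for Arsb at 78.2 CPM beside 68.7 to 71.3 (ratio 0.715).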

How the results depend on the processing

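Of the 16 members called against Ttr, 0 were called over the 17 libraries of the study, 3 without the lettered libraries, 2 over standard-housed and 7 over enriched libraries alone, and, in fits added after seeing the data, 2, 8 and 10 with a meninges, endothelial or border macrophage score, 5 without 31B and 35A, and 10 without 2 and 12. Leaving out 1 library at a time gave 10 to 16 calls, the fewest without 35A. Housing in WT went from 0 members to 6 over the 17 libraries and 4 without the lettered ones, and the average over genotypes from 0 to 2 over the 17 and 1 by the adjusted p alone; over all genes these counts went from 0 to 664 and from 27 to 720 over the 17. DESeq2 called 211 genes for the average, and no filter gave 209. The microglial slope went from 0 to 3 members over all 24 libraries, and the cause was not tested for any of these. With Ttr as a covariate, the average for Ctsd turned to -0.0083, Cd63 in WT went from 0.26 to -0.15, and the medians of the members turned below 0 in both genotypes. The slope of Gaa turned below 0 over the 17 libraries (-0.0058), in standard housing (-0.0133) and without 31B and 35A (-0.0027). The other 254 counts over members equalled the main count or were within 1.5 times of it. Only the slope on Ttr had a main count above 0, so for every other result such a count was 0 beside 0. No paired analysis was possible because the groups share no replicate numbers. Depth limits Ctsk most, with 9 counts in its lowest library.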

Other observations

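The libraries left out for their quality also held counts for these genes. In 33B, from an enriched WT mouse, all 39 members were above the floor of 3 counts, Ttr was at 1268 CPM, and the members differed from the mean of WT EE by a median of -0.092 on the log2 scale, between -0.37 and 0.18. In 34B, from an enriched KD mouse, which held 16442 counts on genes, 23 of the 39 members had no count and 4 were above the floor, so that no level can be read from it.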
